A study of Homo sapiens with 6 samples.

Results

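The 8 genes described here encode the subunits of TRiC, also called CCT, the chaperonin of the cytosol. They were found by gene symbol (TCP1, CCT2, CCT3, CCT4, CCT5, CCT6A, CCT7 and CCT8) among the 58938 entries of a table of FPKM values, and each symbol matched 1 entry. FPKM is the number of fragments relative to the length of the gene and to all fragments of the library. The RNA came from HCT116, an established human colorectal cancer cell line, in 6 RNA sequencing libraries. The 3 vector libraries carry the genotype WT in the labels and the other 3 carry overexpression of MST3, a kinase encoded by STK24. Cells at 60% density received the plasmid by lipofection, got fresh medium 6 hours later and were taken for RNA at 30 hours. The labels name neither the promoter of the plasmid nor the fraction of cells that took it up, and they do not say whether replicates 1 to 3 were separate cultures. The p-values below therefore measure the spread between these libraries, which may be technical.

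TRiC is a barrel made of a pair of stacked rings, and each ring holds 1 copy of each of the 8 subunits in a fixed order. It encloses a newly made protein, closes a built-in lid as ATP is hydrolysed, and releases the folded protein. Actin and the tubulins depend on it, as do many proteins with WD40 repeats, such as the mitotic activator CDC20. Since the barrel uses the subunits in equal numbers, the balance of their mRNAs is the question asked of these data. TCP1, CCT2, CCT4 and CCT5 (the alpha, beta, delta and epsilon subunits) are known as the ones that bind ATP tightly, and CCT3, CCT6A, CCT7 and CCT8 (gamma, zeta, eta and theta) as the ones that bind it weakly.

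Reads were recovered from the FPKM values and came to 15289213 to 17708029 per library. STK24 stood at 17.1 to 17.4 FPKM with vector and 63.7 to 76 FPKM with MST3, as their labels say, and it was the 1 gene of 13036 that passed the test over all genes. MST3 replicate 1 had reads on 27442 genes, against 25099 to 25501 in the other 5 libraries. Of 7 epithelial markers, KRT8, KRT18, KRT19, EPCAM, CDH1 and CDX2 had at least 2.66 FPKM in every library, whereas VIL1 was at or near 0 (0 to 0.0331 FPKM). Of 7 markers of other cells, COL1A1 had 3.72 to 4.97 FPKM, and no other exceeded 0.168 FPKM.

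Each gene has a chromosome of its own except CCT4 and CCT7. On GRCh38, TCP1 (ENSG00000120438) occupies chromosome 6 from 159778498 to 159789749 on the minus strand. CCT2 (ENSG00000166226) occupies chromosome 12 from 69585334 to 69601570 on the plus strand. CCT4 (ENSG00000115484) occupies chromosome 2 from 61868089 to 61888804 on the minus strand, and CCT7 (ENSG00000135624) lies on the same chromosome from 73233420 to 73253021 on the plus strand. CCT5 (ENSG00000150753) occupies chromosome 5 from 10249921 to 10266412 on the plus strand, and CCT3 (ENSG00000163468) occupies chromosome 1 from 156308968 to 156367873 on the minus strand. CCT6A (ENSG00000146731) occupies chromosome 7 from 56051630 to 56063989 on the plus strand, and CCT8 (ENSG00000156261) occupies chromosome 21 from 29055805 to 29073797 on the minus strand.

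RefSeq gives promoter windows on GRCh38.p14 for 7 of the 8 genes. The 250 bases before the start nearest to that of the principal transcript were searched on both strands. The letters CGGAAG (or CTTCCG on the other strand), the core bound by ETS-type transcription factors, occurred in 4 of 7 windows, those of TCP1, CCT2, CCT5 and CCT7, and in 16.5% of all 35116 windows. In all 7 genes the RefSeq start lies after the start of the principal transcript in GENCODE 29, by 70 (CCT7) to 616 bases (CCT5), so the windows include exon bases. The match of CCT5 begins 368 bases after the principal start and is not printed. The matches of the other 3 genes are printed in capitals with up to 10 bases on each side, because these are the letters that they share.
TCP1, chr6:159789782-159789807, minus strand: caacatccgaCTTCCGttctccgctt
TCP1, chr6:159789699-159789724, minus strand: cggagcctcaCTTCCGtcacagtcct
CCT2, chr12:69585434-69585458, plus strand: tgtggcgtcaCTTCCGgcttccttc
CCT7, chr2:73234235-73234260, plus strand: catagagtagCGGAAGtggtccgttc
Of these 4 matches, the first of TCP1 lies before the principal start. The second of TCP1 begins 35 bases after it, that of CCT2 110 bases after it and that of CCT7 7 bases after it.

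CCAAT or ATTGG occurred in 4 of 7 windows (TCP1, CCT2, CCT3 and CCT8), against 32% of all windows. GAANNTTC, a pair of the units bound by heat shock factors, occurred in the window of TCP1 alone, against 5.78% of all windows. The E-box CACGTG and TATAAA (or TTTATA) occurred in none of the 7, against 6.345 and 10.7% of all windows. The motifs were chosen after the windows had been read, and a match is no evidence of binding. The 7 windows had 56.8 to 64% GC, and the set of all windows was not matched to them in GC content or gene level. Neither CGGAAG nor CCAAT sorts the genes by level, since CCT7 and CCT3 at the top and CCT5 and CCT2 at the bottom of the order below each include a match.

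All 8 subunits were strongly expressed. By mean FPKM over the 6 libraries they ranked between 156 (CCT3) and 666 (CCT5) of the 10879 protein-coding genes tested. The reads behind each value numbered 4533 to 12201 per library, so the counting error of a single value (1 SD) was 0.905 to 1.49%.

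Among the subunits that bind ATP tightly, CCT4 had the highest level. It had 121, 138 and 123 FPKM in vector replicates 1 to 3 and 107, 126 and 115 FPKM in MST3 replicates 1 to 3. Vector replicate 2 was the high one, and the groups overlapped. TCP1, the founding member of the family, had 84.1, 90.6 and 85.1 FPKM with vector and 71.6, 89.7 and 80.7 FPKM with MST3. MST3 replicates 1 and 3 lay below all vector libraries, and replicate 2 lay among them. CCT2 had 77.8, 81.2 and 80.2 FPKM with vector and 66.9, 81.1 and 65.6 FPKM with MST3, again with replicates 1 and 3 low and replicate 2 inside the vector range. CCT5 was the lowest of the 8 in every library, with 44.2, 49.1 and 49.8 FPKM with vector and 49.8, 52.5 and 45.9 FPKM with MST3. Its groups overlapped as well.

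Among the subunits that bind ATP weakly, CCT3 was the highest of the 8 in every library. It had 159.7, 163 and 161 FPKM with vector and 156, 175 and 165 FPKM with MST3, so the MST3 values enclosed the vector values. CCT7 had 126, 123 and 128 FPKM with vector and 123, 122 and 132 FPKM with MST3, the tightest of the 8 over the 6 libraries (SD over mean 3.04%). CCT8 had 111, 114 and 108 FPKM with vector and 104, 121 and 96.7 FPKM with MST3. The MST3 libraries of CCT8 lay on both sides of the vector range. CCT6A had 79.6, 82.4 and 79.2 FPKM with vector and 81.3, 83.9 and 74.1 FPKM with MST3, with overlapping groups.

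**Figure D1:**
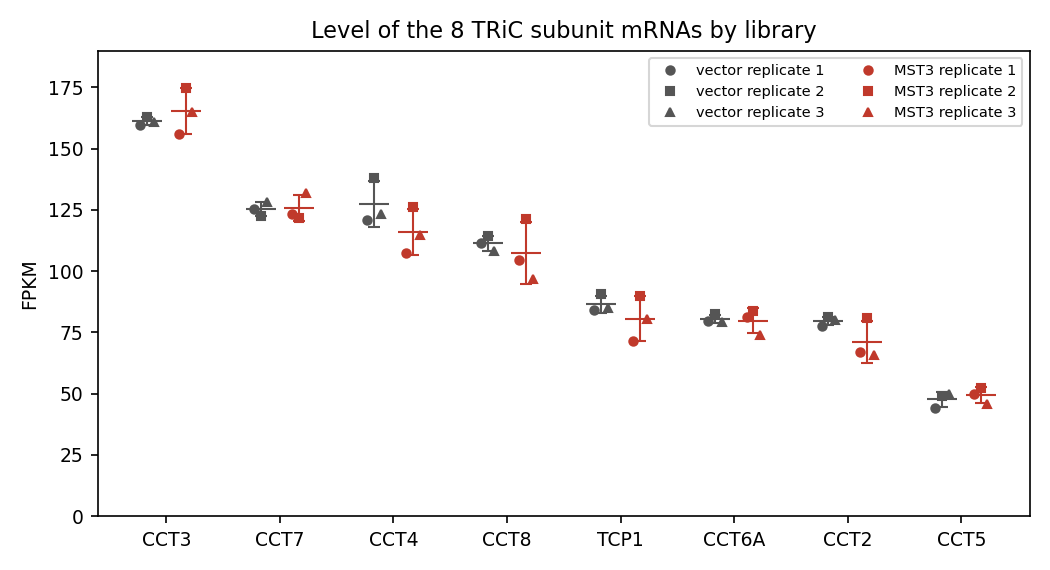
FPKM of each TRiC subunit mRNA (vertical axis) in the 3 vector (grey) and 3 MST3 libraries (red), ordered by mean level, with a bar at the group mean and error bars of 1 SD (n = 3). CCT3 is highest and CCT5 lowest in every library, and the 2 groups overlap for all 8 subunits.

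The subunits were not at equal levels, and they spanned a 3.36-fold range. The mean FPKM of CCT3 over the 6 libraries was the highest and that of CCT5 the lowest, and their ratio lay between 3.13 and 3.61 in single libraries. It was 3.39 ± 0.201 in the vector libraries and 3.35 ± 0.23 in the MST3 libraries (SD, n = 3 each), a difference smaller than either SD. The SD of the 8 levels was 35.7% of their mean, with 35 ± 0.725% with vector and 37.2 ± 2.51% with MST3 (SD, n = 3 each). With the deposited gene length these ranges overlapped, at 34.5 to 35.8% and 35.3 to 40%, and MST3 replicate 3 gave the highest value.

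In the order of levels, some steps exceeded the spread between libraries and others did not. CCT3 stood 1.30-fold above CCT7, CCT8 stood 1.31-fold above TCP1 and CCT2 stood 1.55-fold above CCT5, each in 6 of 6 libraries and with ranges that did not touch. CCT7 and CCT4 (126 and 122 FPKM on average) exchanged places between libraries, as did TCP1 and CCT6A (83.6 and 80.1) and CCT6A and CCT2 (80.1 and 75.5). CCT4 was above CCT8 in 6 of 6 libraries, although their ranges overlapped. With the deposited gene length as divisor, the order thus falls into CCT3, then CCT7, CCT4 and CCT8, then TCP1, CCT6A and CCT2, and last CCT5.

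How balanced the subunits look depends on the length that divides the reads. The deposited lengths of the 8 genes run from 2830 bp (CCT4) to 5839 bp (CCT5), and each equals the union of all annotated exons of the gene in GENCODE 29, from between 4 (CCT4) and 18 (TCP1) transcripts. The coding lengths of their principal transcripts differ much less, from 1593 bases (CCT6A) to 1668 bases (TCP1). The principal transcript of CCT4 spans 89% of its deposited length, while that of CCT2 spans 47.2%.

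With the principal transcript as divisor, CCT3 stood 3.95-fold above CCT5, and the SD of the 8 levels was 41.4% of their mean. The group ranges of that SD overlapped, at 38.5 to 41.5% with vector and 41 to 46.4% with MST3. With the coding length as divisor, the ratio was 2.30 and the SD 29.6% of the mean. There the SD was 27.12 to 29.55% with vector and 29.67 to 34.86% with MST3. These ranges did not overlap, and no test was made on them. That last scale still counts reads from untranslated regions and so is no level per transcript either. Between the gene length and the coding length CCT5 moved most as a ratio, from 0.481 to 0.722 times the mean of the 8. Between the gene length and the principal transcript CCT4 moved most, from 1.21 to 0.795 times. CCT4 ranked 3 with the gene length, 6 with the principal transcript and 5 with the coding length. CCT3 ranked 1, CCT7 ranked 2 and CCT5 was last on all 3 scales. The other steps in the order were not kept on all 3 scales. With the principal transcript CCT8 stood 1.10-fold above TCP1, with overlapping ranges. On that scale CCT6A stood 1.49-fold above CCT5, with ranges that did not touch. With the coding length TCP1 stood 1.11-fold above CCT8. There CCT6A stood 1.12-fold above CCT5, and their ranges overlapped. CCT3 stood at 1.62, 1.77 and 1.66 times the mean of the 8 on the 3 scales in turn.

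**Figure D2:**
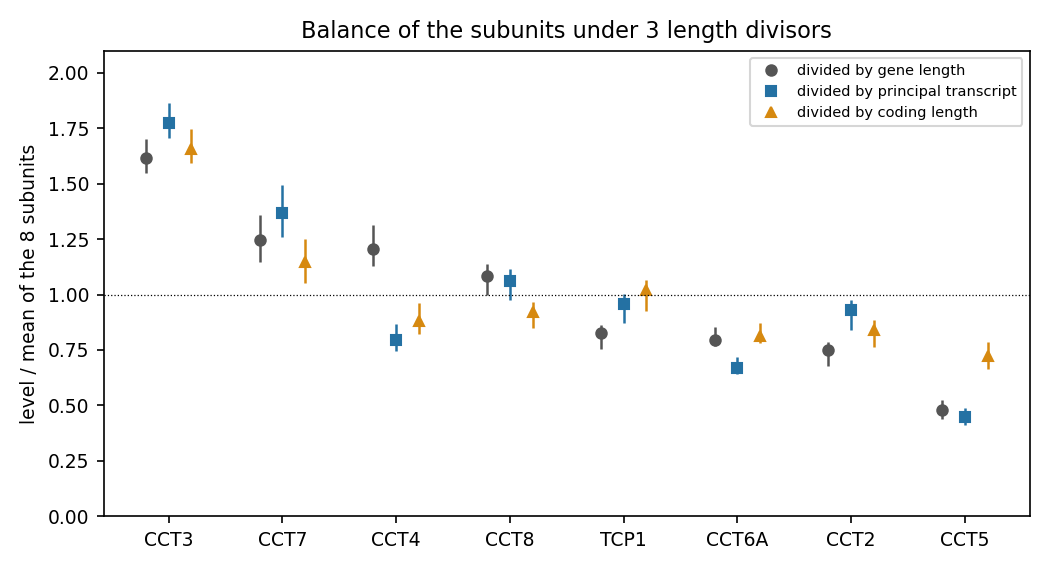
Level of each subunit as a multiple of the mean of the 8 (vertical axis), with reads divided by the deposited gene length, the principal transcript or its coding length. Points are means over 6 libraries and lines run from the lowest to the highest library. CCT3 lies at 1.62, 1.77 and 1.66 and CCT5 at 0.481, 0.448 and 0.722 on the 3 scales.

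Beside 3 other complexes that use their subunits in equal numbers, the mRNAs of TRiC had the smaller spread. The SD was 58.9% of the mean for the MCM2-7 ring (6 genes of the replicative helicase, from MCM5 at 16.5 to MCM7 at 81 FPKM). It was 99.9% for prefoldin (6 genes of the complex that hands proteins to TRiC, from PFDN6 at 7.03 to PFDN2 at 86.2 FPKM). It was 81.1% for the 20S proteasome core (14 genes, from PSMA6 at 0.471 to PSMB3 at 128 FPKM). The highest single library of TRiC, at 40%, lay below the lowest of each of the others (56.8, 88.1 and 79.1%). With the principal transcript the values were 41.4% for TRiC against 59.9, 77 and 80.6%, and with the coding length 29.6% against 56.5, 49.1 and 62.1%. The ratio of highest to lowest gene did not keep this order, since with the principal transcript it was 3.95 for TRiC and 3.66 for MCM2-7, against 6.93 for prefoldin. The subunits of a complex are not replicates, so these values carry no test. PSMA2 and PSMA6 had means under 1 FPKM, and each overlaps a second protein-coding gene model on the same strand, whose part in their values was not tested. Without these 2 genes the 20S core had an SD of 64.8% of its mean with the gene length. It was 64.7% with the principal transcript and 43.5% with the coding length.

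**Figure D3:**
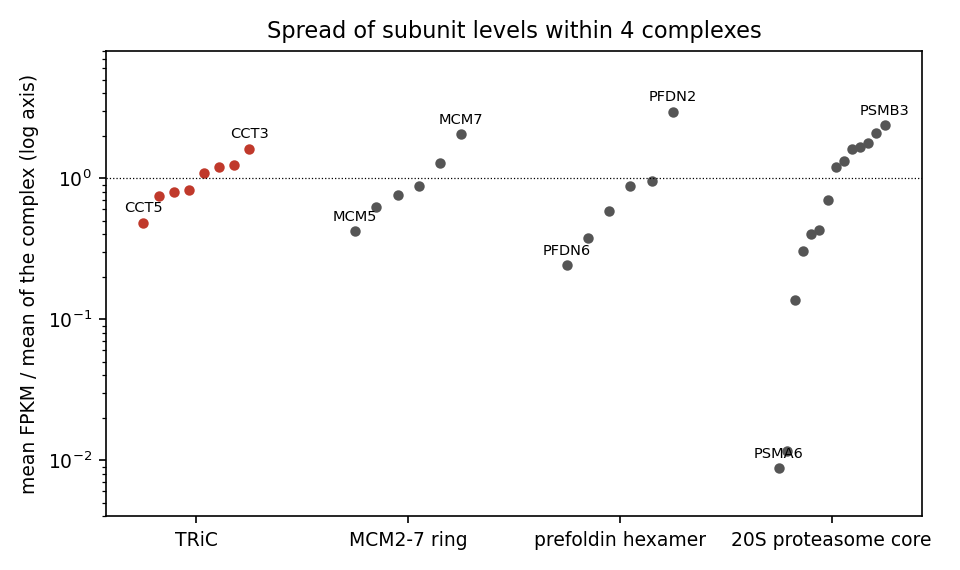
Mean FPKM of each subunit over the 6 libraries, divided by the mean of its complex (vertical log axis), for TRiC and 3 other complexes, with the highest and lowest gene named. The TRiC points span a ratio of 3.36, against 4.90 for MCM2-7 and 12.3 for prefoldin on this scale, and 3.95 against 3.66 and 6.93 with the principal transcript.

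The MST3 and vector libraries were then set against each other, gene by gene. By limma on log2(FPKM + 1), 0 of the 8 subunits passed at an adjusted p of 0.05, where 0.00767% of the 13036 tested genes did. At an unadjusted p under 0.05 there were 0 of 8, against 5.38% of tested genes, and limma voom on the recovered reads gave 0 by both criteria. The groups did not overlap for 0 of the 8, against 11.9% of tested genes (6.7% with MST3 lower and 5.19% with MST3 higher). The log2 differences of 5 subunits were below 0 and those of 3 above it, but the split was 4 and 4 with median-of-ratios scaling and 7 and 1 with quantile normalization. Their median was -0.03, and the median of all tested genes was -0.01.

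The difference farthest from 0 was that of CCT2, which had 79.8 ± 1.74 FPKM with vector and 71.2 ± 8.59 with MST3 (SD, n = 3). Its log2 difference was -0.17 (SE 0.10, 95% interval -0.41 to 0.08), with an unadjusted p = 0.152 and an adjusted p = 0.719 by limma. Without MST3 replicate 2 it was -0.26 (unadjusted p = 0.0158, adjusted p = 0.216 by limma), the one fit of all in which a subunit had an unadjusted p under 0.05. In that fit 2554 of the 13036 tested genes had an unadjusted p under 0.05 by limma. CCT4 had 127 ± 9.22 and 116 ± 9.44 FPKM, a log2 difference of -0.13 (interval -0.37 to 0.10). TCP1 had 86.6 ± 3.48 and 80.7 ± 9.08 FPKM, a log2 difference of -0.11 (interval -0.35 to 0.14), which was -0.02 without MST3 replicate 1, -0.19 without MST3 replicate 2 and -0.03 with the length and GC trend removed. CCT5, which belongs with these among the subunits that bind ATP tightly, had 47.7 ± 3.07 and 49.4 ± 3.32 FPKM and a log2 difference of 0.05 (interval -0.17 to 0.27).

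The other 4 subunits are those that bind ATP weakly. CCT8 had 111 ± 3.18 FPKM with vector and 107 ± 12.5 with MST3, a log2 difference of -0.06 (interval -0.30 to 0.19). CCT3 had 161 ± 1.68 and 165 ± 9.38 FPKM, a log2 difference of 0.03 (interval -0.17 to 0.24). For CCT6A (80.4 ± 1.73 and 79.8 ± 5.06 FPKM) the difference was -0.01 (interval -0.22 to 0.19), and for CCT7 (125 ± 2.92 and 126 ± 5.29 FPKM) it was 0.00 (interval -0.19 to 0.20). All SDs are over n = 3 libraries. The lowest bound of the 8 intervals, that of CCT2, corresponds to a ratio of 0.75 and the highest, that of CCT5, to a ratio of 1.21.

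**Figure D4:**
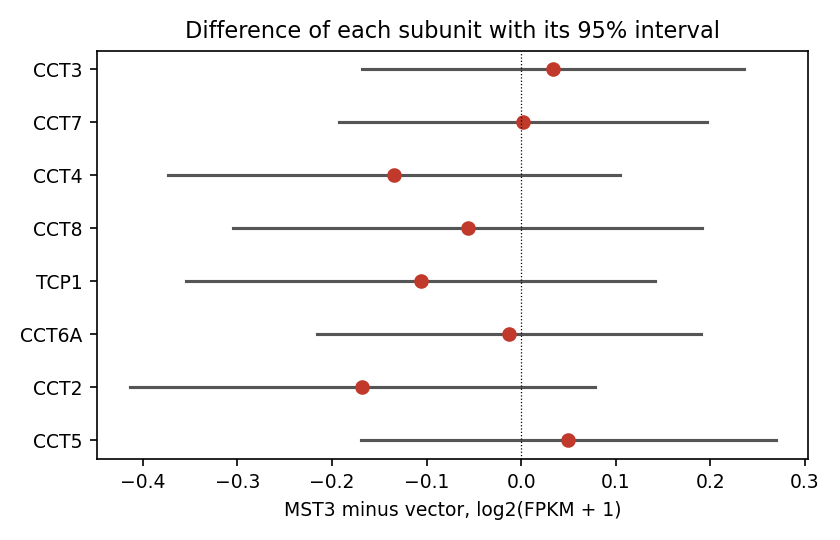
Difference in log2(FPKM + 1) between MST3 and vector libraries for each subunit (point) with its 95% interval (line) from limma, n = 3 per group. All 8 intervals include 0, from -0.41 at the lowest bound (CCT2) to 0.27 at the highest (CCT5).

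MST3 replicates 1 and 3 lay farther from the vector mean than the other libraries over all tested genes, with quartiles of the log2 deviation of -0.18 and 0.15 in replicate 1 and -0.17 and 0.21 in replicate 3. In the other 4 libraries the quartiles lay between -0.09 and 0.08. For the subunits, the SD over the mean had a median of 2.59% over the 8 subunits in the vector libraries and 7.43% in the MST3 libraries, beside the counting error of 0.905 to 1.49%. The sum of the 8 FPKM values was 820 ± 19.4 with vector and 796 ± 48.7 with MST3 (SD, n = 3). The reads of the 8 subunits made up 0.30 to 0.34% of all recovered reads of a library. MST3 replicate 2 held the highest value of the MST3 group for 7 of 8 subunits, all but CCT7, and vector replicate 2 held the highest of its group for 6 of 8. Against the vector mean of each subunit, the median of the 8 was -0.07, 0.06 and -0.11 on the log2 scale in MST3 replicates 1 to 3, and -0.02, 0.04 and -0.01 in vector replicates 1 to 3.

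The subunits did not move as a block. In MST3 replicate 1, TCP1, CCT2 and CCT4 stood at -0.27, -0.25 and -0.24 against their vector means, whereas CCT5 stood at 0.06 and CCT6A at 0.02. In MST3 replicate 3, CCT2 and CCT8 stood at -0.28 and -0.20, whereas CCT7 stood at 0.07 and CCT3 at 0.03. As a description over the 6 libraries, Pearson's r with the mean of the other 7 subunits was 0.81 to 0.88 for TCP1, CCT2, CCT4 and CCT8. It was 0.61 for CCT6A, 0.57 for CCT3, 0.36 for CCT5 and -0.61 for CCT7. These points share their library and its scaling.

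The GC content of the subunits differed as well, and its part in these values of r was not tested. CCT5 and CCT6A share the lower GC content of TCP1, CCT2, CCT4 and CCT8. CCT7, which had the lowest r, and CCT3 have a higher one. The longest transcripts of CCT3 and CCT7 have 51.2 and 51.3% GC, and those of the other 6 subunits have 43.1 to 45.9%. Among the 1453 other tested genes in the latter range, the median deviation from the vector mean was -0.09, 0.01 and -0.12 in MST3 replicates 1 to 3, beside -0.17, 0.06 and -0.13 for the 6 subunits. Among the 902 other tested genes within 1 percentage point of CCT3 and CCT7, it was -0.04, -0.02 and 0.01, beside -0.03, 0.04 and 0.05 for those 2 subunits. After the trend with length and GC content had been taken out of each library, the log2 differences of the 8 subunits ran from -0.11 (CCT2) to 0.14 (CCT5) with a median of -0.00. None passed there either (smallest adjusted p = 0.672 by limma).

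**Figure D5:**
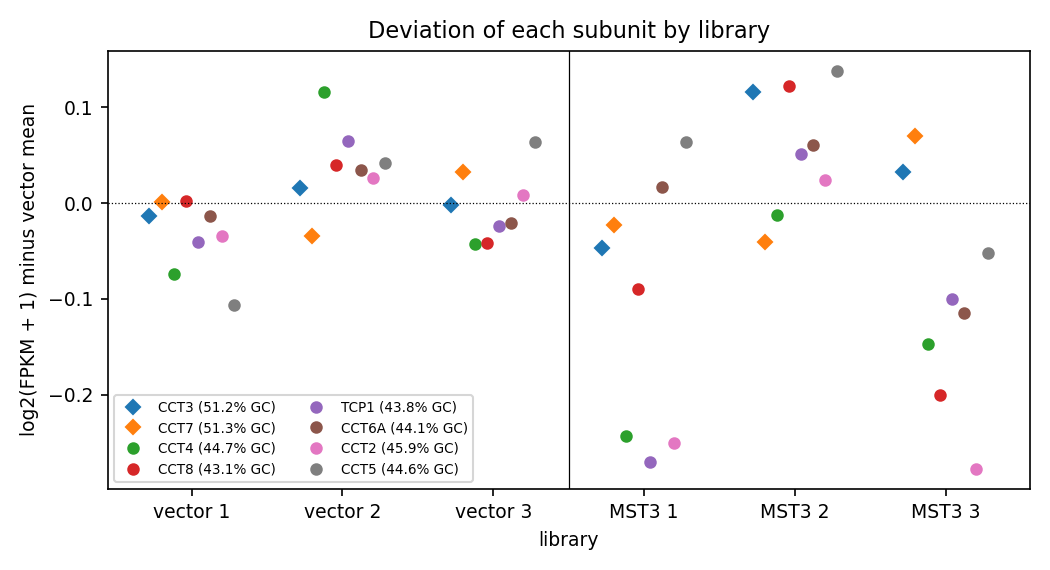
Deviation of each subunit in log2(FPKM + 1) from its vector mean (vertical axis) in the 6 libraries, with diamonds for CCT3 and CCT7 and circles for the other 6 subunits, and with the GC content of each longest transcript in the legend. TCP1, CCT2 and CCT4 lie at -0.27 to -0.24 in MST3 replicate 1, and CCT2 and CCT8 at -0.28 and -0.20 in MST3 replicate 3.

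The make-up of the pool of 8 mRNAs, which does not depend on the scaling of the libraries, was compared between the groups as well. CCT3 made up 19.9, 19.4 and 19.7% of the summed FPKM with vector and 20.5, 20.5 and 21.3% with MST3. CCT2 made up 9.69, 9.66 and 9.84% with vector and 8.79, 9.53 and 8.47% with MST3. CCT4 made up 15, 16.4 and 15.1% with vector and 14.1, 14.8 and 14.8% with MST3. The groups did not overlap for these 3 of 8 subunits, against 15.4% of the 26 subunits of the other 3 complexes within their own sums. The shares add up to a whole, so they are not independent, and no test was made on them. In levels relative to the mean of the 8 on the log2 scale the same 3 did not overlap. After removal of the length and GC trend there were 2, CCT2 (lower) and CCT5 (higher), while the groups overlapped for CCT3 and CCT4. No share over other complexes was computed on either log2 scale. The make-up of the pool was examined after the data had been seen.

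Reads of the subunits could be shared with copies elsewhere, but few reads were assigned there. The table holds 13 pseudogenes of the 8 subunits, of which 5 were listed at 0 in all libraries and 1, CCT6P1, averaged 1 FPKM or more. CCT6P1 had 2.59, 3.49 and 3.33 FPKM with vector and 2.25, 2.41 and 2.41 FPKM with MST3. All MST3 values of CCT6P1 lay below all vector values, as they did for 6.7% of tested genes. The groups of TCP1P1 did not overlap either, but with MST3 higher, at 1 to 6 reads per library. Together the pseudogenes of CCT6A held 2.30% as many reads as CCT6A itself, and those of all 8 subunits held 0.282% as many as their parents. Among pseudogenes of the other subunits, CCT8P1 had 0.317 to 1.06 FPKM and no other exceeded 0.356 FPKM in any library, while both of CCT4 were listed at 0. CCT2 and CCT3 had no named pseudogene in the table. On the opposite strand, ACAT2 overlaps the end of TCP1 by 558 bases and held 8.75% as many reads as TCP1. The strand setting of the counting is not given in the sources used here, so reads of that overlap cannot be told apart.

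CCT6B, the close relative of CCT6A that is known from testis, had 0.263 to 0.55 FPKM and was too low to test. CCT8L2 and CCT8L1P were listed at 0. The mitochondrial chaperonin HSPD1 had 249, 261 and 249 FPKM with vector and 245, 272 and 214 FPKM with MST3 (log2 difference -0.06), above every TRiC subunit. Its lid HSPE1 had 24.1 ± 1.38 FPKM with vector and 25.5 ± 6.72 with MST3 (SD, n = 3). The chaperonin-like proteins of the BBSome pathway were low, with BBS10 at 10.3 and 9.34 FPKM, MKKS at 1.99 and 1.88 and BBS12 at 1.84 and 1.35 with vector and MST3. None of the 5 tested relatives passed limma over all genes.

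Partners that bring proteins to TRiC were tested as a list of 12 prefoldin and co-chaperone genes, of which 0 passed in either direction over all genes by limma. In this list 7 differences were above 0 and 5 below it, with a median of 0.06. PDCL3, a phosducin-like co-chaperone, had 8.11, 8.38 and 8.2 FPKM with vector and 10.4, 9.84 and 8.99 FPKM with MST3. Its groups did not overlap (log2 difference 0.22, unadjusted p = 0.0278, adjusted p = 0.719 by limma). It was the one member of the 12 with an unadjusted p under 0.05 by limma, against 5.38% of all tested genes. PFDN2 had 69.6, 71.1 and 75.4 FPKM with vector and 140.2, 77.5 and 83.2 FPKM with MST3. PFDN6 had 6.57, 4.01 and 5.88 FPKM with vector and 12.4, 6.53 and 6.76 FPKM with MST3. Both were highest in MST3 replicate 1, and the groups did not overlap for PFDN2 but did for PFDN6 (adjusted p = 0.719 by limma for each). In this list the groups did not overlap for 2 of 12 genes, against 11.9% of all tested genes. UXT, a prefoldin-like subunit, had 14.8 ± 1.09 FPKM with vector and 17.3 ± 2.19 with MST3 (SD, n = 3).

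The folding cofactors that take tubulin from TRiC comprised 6 tested genes, with 4 differences above 0, 2 below it, 0 that passed by limma and a median of 0.10. TBCB had 14.9, 12.4 and 13.8 FPKM with vector and 19.4, 14.1 and 17.8 FPKM with MST3. TBCA, which binds beta-tubulin, had 22.3, 23 and 23.4 FPKM with vector and 40.9, 25.8 and 21.9 FPKM with MST3. Only MST3 replicate 1 was far above the vector range for TBCA. ARL2 and TBCE had log2 differences of 0.19 and -0.12. Another entry named TBCE was too low to test, at 0.270 to 0.453 FPKM with vector and 0.439 to 0.605 FPKM with MST3.

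Of 13 tested actin and tubulin genes, whose products TRiC folds, 5 differences were above 0 and 8 below it, with a median of -0.09 and 0 that passed by limma. ACTG1 had 4582, 5024 and 4488 FPKM with vector and 3539, 4162 and 4668 FPKM with MST3. ACTB had 948, 1084 and 999 FPKM with vector and 698, 925 and 996 FPKM with MST3. Both were lowest in MST3 replicate 1, and their groups overlapped. TUBB had 337, 368 and 350 FPKM with vector and 272, 334 and 326 FPKM with MST3, without overlap (log2 difference -0.18, adjusted p = 0.719 by limma). TUBG1 and TUBA1B had log2 differences of 0.16 and 0.13, also without overlap, and TUBA4A had one of -0.17. In this list of 13, 2 genes were thus higher and 1 lower without overlap, against 5.19 and 6.7% of all tested genes.

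Of 13 other known clients tested, 7 differences were above 0 and 6 below it, with a median of 0.02 and 0 that passed by limma. PPP2R2A, a regulatory subunit of the phosphatase PP2A, had 14.2 ± 0.59 FPKM with vector and 12.4 ± 1.45 with MST3 (SD, n = 3). VHL had 14.8 and 16.5 FPKM, FZR1 12.2 and 13.8 FPKM and GNB1 84.1 and 78.9 FPKM with vector and MST3. Of the transcription factors known to act on chaperone genes, HSF1 had 24.4 ± 0.415 and 25.7 ± 5.33 FPKM, HSF2 15.5 ± 1.36 and 12.9 ± 2.43 FPKM and MYC 108 ± 4.19 and 98 ± 19.8 FPKM (SD, n = 3). Their log2 differences were 0.05, -0.26 and -0.16, and all 3 had an adjusted p of at least 0.719 by limma. HSF1 and MYC were highest in MST3 replicate 3, where HSF2 was lowest.

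The genes most like the subunits were sought among the 4065 other protein-coding genes that averaged 10 FPKM or more, by Pearson's r over the 6 libraries with the mean log2 level of the 8. NECTIN3 (r = 0.995), XRCC5 (0.994), G3BP1 (0.990), DUSP6 (0.990) and SKP1 (0.990) came first. XRCC5, which encodes a subunit of the Ku DNA end-binding protein, had 104, 119 and 108 FPKM with vector and 89.1, 119 and 90.1 FPKM with MST3. It was thus high in replicate 2 of both groups and low in MST3 replicates 1 and 3, as TCP1, CCT2, CCT4 and CCT8 were. CCT7, by contrast, was lowest in replicate 2 of both groups. The GC content of these 5 genes was 38.3 to 46.7%. With 6 libraries and so many genes, values of r this close to 1 are a description of these libraries.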

How the data were processed

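RNA sequencing of 6 HCT116 libraries (3 vector, 3 MST3) was deposited as FPKM values per gene, computed by the authors, with gene lengths in the same table. Reads were aligned with HISAT2, per the submitters' processing notes. The counting tool, strand setting, annotation and the version of HISAT2 are details not stated in the sources used here. All 58735 Ensembl IDs had the same position in GENCODE 29 (GRCh38), and 58724 gene lengths equalled the union of exons, so FPKM of genes with many transcripts is lower than a level per transcript would be. FPKM values were whole multiples of 1 read in 100% of cases (tolerance 0.01), which gave the recovered reads per library.

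Genes averaging 1 FPKM or more were tested on log2(FPKM + 1), which understates the change of low genes, with limma 3.58.1 in R 4.3.3 (two-sided, Benjamini-Hochberg over 13036 genes, threshold 0.05). Levels were summarised in Python 3.11.15. The fit was tested on simulated data with the same dispersion in all libraries. That setting leaves out the wider spread of MST3 replicates 1 and 3. GC content was that of the longest annotated transcript, with a spline of 3 degrees of freedom for the trend. Named genes were all subunits, STK24, in each list up to 4 tested genes with the smallest unadjusted p, and in any case ACTB, ACTG1, HSPD1, HSPE1, HSF1 and MYC, with the pseudogene of highest mean per subunit and the 5 genes of highest r. The members and lists were chosen with earlier results of these data known. Alternatives were other pseudocounts, filters, scalings, lengths, limma settings, voom, a replicate block and leaving out each library.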

Additional observations from a re-analysis of the deposited data

How the results depend on the processing

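In every fit 1 gene (STK24) and 0 subunits passed at an adjusted p of 0.05 by limma. The ratio of CCT3 to CCT5 moved from 3.36 to 3.95 with the longest or the principal transcript and to 2.30 with the coding length, and the SD over the mean of the 8 levels from 35.7 to 41.4, 41.4 and 29.6%. The principal and coding lengths were added after seeing the data. Small log2 differences changed sign: CCT6A was 0.00942 with median-of-ratios factors, 0.00386 with array weights and 0.022 by voom. Quantile normalization gave -0.0032 for CCT3 and -0.026 for CCT7, and array weights gave -0.012 for CCT7. With the length and GC trend removed, CCT6A was 0.052, CCT7 -0.0064, CCT8 0.0026, TBCE 0.000599, MKKS 0.048, HSPD1 0.0094 and HSF1 -0.055. The cause was not tested.

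Leaving out 1 library changed the sign of CCT5 to -0.0032 (vector replicate 1), of CCT6A to 0.0048 and CCT7 to -0.015 (vector replicate 2), of HSPE1 to -0.15 (MST3 replicate 1) and of CCT3 to -0.0072 (MST3 replicate 2). Over the fits that left out 1 library, CCT3 ran from -0.0072 to 0.074, CCT5 from -0.0032 to 0.101, CCT6A from -0.049 to 0.039 and CCT7 from -0.032 to 0.024. CCT8 reached 0.016, HSPD1 ran from -0.143 to 0.031, HSF1 from -0.10 to 0.173 and HSPE1 from -0.15 to 0.206. The positive ends of CCT6A, CCT8 and HSPD1 and the negative ends of CCT7 and HSF1 came without MST3 replicate 3. Without MST3 replicate 1 several differences shrank by over 1.5 times with the same sign: TCP1 to -0.02, CCT4 to -0.08, TUBB to -0.09, MYC to -0.02, PFDN2 to 0.16, PFDN6 to 0.26 and TBCA to 0.05. The median of the 8 lay between -0.10 (without MST3 replicate 2) and -0.01 (without MST3 replicate 3). At an unadjusted p under 0.05 there were 701 genes with all libraries and 2554 once MST3 replicate 2 was left out. There were 298 and 444 when vector replicate 2 or 1 was left out, and 452 for MST3 replicate 1.

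With the replicate number as a block, 1 gene and 0 subunits passed, the smallest adjusted p of a subunit was 0.530 (CCT2, limma) and 1338 genes had an unadjusted p under 0.05. Deviations of same-numbered libraries correlated at 0.02, 0.23 and 0.04, and not every library correlated best with its own number, so the numbers were not taken to pair the libraries. A planned count test with another tool on the recovered reads and a divisor from protein lengths were not run. Voom and the coding length stand in their place.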
